A study of Mus musculus with 8 samples.

Results

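The 40 genes described here encode enzymes that build sphingolipids and fatty acids, a set of enzymes that break sphingolipids down, and Srebf1, a transcription factor of fatty acid synthesis. They were chosen by gene symbol from pathway knowledge, and none of their measured values entered the choice rule, but earlier results of these data were known. All 40 were found among the 24081 unique genes of the deposited brainstem (BS) table, and all 40 were among the 15123 genes that reached a mean of 10 normalized counts over the 8 libraries and were tested.

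RNA-seq of whole BS was performed on 4 knock-in (KI) and 4 control mice at postnatal day 19 (P19), and the comparison asks which transcripts accompany hPDGFRA overexpression. KI mice carried hPDGFRA fl/+, a human PDGFRA gene placed in the Rosa26 locus behind the CAG promoter and a loxP-flanked stop, so that Olig2-Cre turns it on in Olig2-progenitors and their descendants. Both groups were untreated C57BL/6 mice with Olig2-Tv-a/Cre, Nestin tv-a and p53 fl/fl, so the controls also lacked p53 in Olig2-progenitors, and the comparison holds no p53 wild type group. The labels number 4 samples a group, the study counts them as mice, and no pairs or litters are stated. The tissue held oligodendrocytes (OL), OL progenitor cells (OPC), astrocytes, neurons, microglia, vessels and variable choroid plexus.

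Ceramide, the backbone of sphingolipids, is made from serine and palmitoyl-CoA, and ceramide synthases attach fatty acids of different lengths to it. Elongases and desaturases shape those fatty acids, which start from acetyl-CoA through carboxylation and fatty acid synthase. In the central nervous system, OL turn ceramide into galactosylceramide and its sulfated form sulfatide, the main glycolipids of myelin, and many of these carry very long or hydroxylated fatty acids.

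Recovered reads summed to 21492789 to 24458589 per KI library (median 22459666) and to 24816146 to 27716846 per control library (median 26739067), so every KI library was shallower. Normalized counts are reads divided by the size factor of the library, and they are not corrected for transcript length. As a check of the labels, Pdgfra had 11440, 9706, 8939 and 3269 normalized counts in KI replicates 1 to 4, against 2565, 2961, 3087 and 3018 in control replicates 1 to 4. The Rosa26 transcript Gt(ROSA)26Sor had 602.9, 604.7, 572.7 and 328.2 in KI replicates 1 to 4, against 82.9 to 93.93 in control mice. KI replicate 4 therefore stood apart from the other KI libraries and close to the controls for Pdgfra, and it was also the only KI library high in Xist, with 8943 normalized counts, whereas control replicates 2 and 3 had 4155 and 7792. The choroid plexus gene Ttr was low in KI replicate 3, at 236.7, and in control replicate 4, at 44.92 normalized counts. The 8 brainstem markers summed to 14208, 16041, 6453 and 17245 in KI replicates 1 to 4. In control replicates 1 to 4 they summed to 15973, 14198, 16624 and 11082, and none of the 8 was called. The lowest sum of each group was in its library low in Ttr. The 5 forebrain markers summed to 129 to 197 in KI and 113 to 205 in control libraries. Only 2 of these 5 were tested, and neither was called.

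Of the 40 genes, 11 were lower and 2 were higher in KI BS at an adjusted p under 0.05 (limma on log2(normalized count + 1), Benjamini-Hochberg over 15123 genes), and 27 did not pass. Over all genes tested, 12.4% were called lower, 12.0% were called higher and 24.4% were called either way. The 11 lower genes were Ugt8a, Gal3st1, Fa2h, Sptlc2, Cers2, Arsa, Elovl1, Elovl6, Acaca, Fasn and Fads3, and the 2 higher genes were Elovl2 and Scd1. The median log2 fold change of the 40 was -0.16, against -0.004 over all genes tested, and 25 of the 40 were below 0. All 4 KI libraries lay below all 4 controls for 3 genes, Cers1, Elovl1 and Fads3, and above them for 3, Elovl2, Scd1 and Fads1. Over all genes, 12.8% lay wholly below and 12.7% wholly above.

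The count of lower genes depended on single libraries, as did the calls over all genes. Without KI replicate 4, the count was 14 lower and 5 higher (18.2% and 16.8% of all genes). Without control replicate 4, it was 12 lower and 1 higher, with 3347 calls over all genes, against 3685 with all 8 libraries. Without KI replicates 1, 2 or 3 in turn, 3, 0 and 5 were lower and 1 was higher each time. Calls over all genes were then 2200, 1001 and 2279. Without control replicates 1, 2 or 3 in turn, 1, 0 and 0 were lower and 1, 1 and 2 were higher. Calls over all genes were then 2317, 888 and 1872. In the 3 limma fits without 1 library that called no gene lower, between 13 and 16 of the 40 were lower at an unadjusted p under 0.05, and 3 to 6 were higher. Of all 15123 genes, 4730 (without KI replicate 2), 4723 (without control replicate 2) and 5077 (without control replicate 3) passed that unadjusted limit either way. The edgeR quasi-likelihood test on recovered reads called 8 lower and 2 higher, against 11.2% and 12.8% of all genes, and the DESeq2 Wald test called 12 lower and 5 higher, against 14.3% and 14.9%. Without the 2 libraries low in Ttr, 6 were lower and 1 was higher, against 6.11% and 6.03% of all genes. In 8 of the 11 lower genes, KI replicate 4 lay within the control range, as it did in 22 of all 40 genes. The share over all genes tested was not counted.

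**Figure D1:**
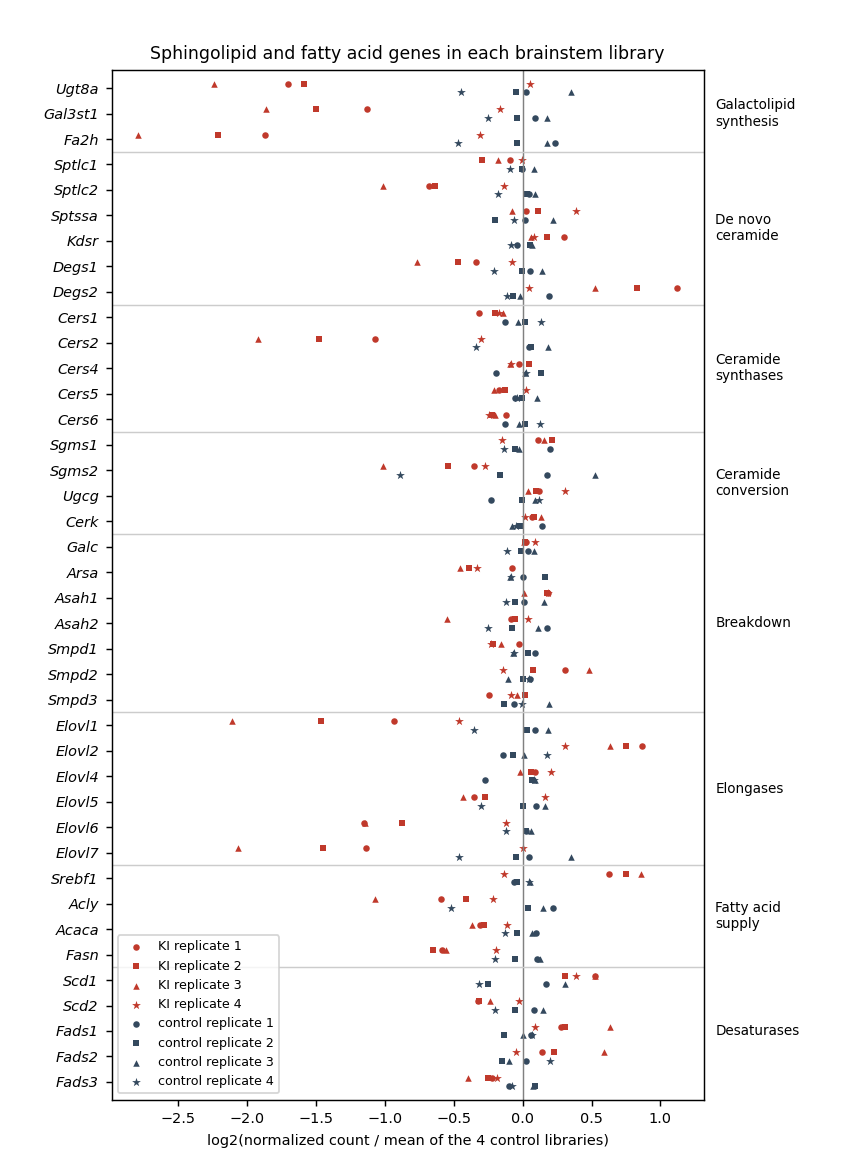
Normalized count of each of the 40 genes in each library, as the log2 ratio to the mean of the 4 control libraries, with genes grouped by role (red, KI mice; dark blue, control mice; one marker shape per replicate number). KI replicates 1 to 3 lay furthest to the left for Fa2h, at 2592, 2054 and 1373 normalized counts, whereas KI replicate 4 (red star), at 7642, lay among the controls.

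In bulk tissue, fewer cells of a type and less RNA per cell cannot be told apart. Several cell type marker lists also held called genes. Of 16 myelinating OL markers, 7 were lower and 0 higher in KI BS, and their summed level was 336668 to 913476 in KI and 738651 to 1105011 in control libraries. Of these 16, 13 were lower without KI replicate 4 and 2 without the libraries of low Ttr. All 10 newly formed OL markers were lower, with sums of 17190 to 53520 in KI and 68687 to 82654 in control libraries, and 8 of 10 OPC markers were lower, with sums of 6610 to 13691 in KI and 18341 to 21913 in control libraries. Leaving out KI replicate 3 and control replicate 4, which were low in Ttr, 6 newly formed OL and 3 OPC markers were lower. Of 16 astrocyte markers, 11 were higher and 0 lower, with sums of 292915 to 462193 in KI and 211233 to 260072 in control libraries. KI replicate 4 had the highest OL and OPC sums and the lowest astrocyte sum of the KI libraries. No microglia marker of 12 was called, with sums of 8515 to 9441 in KI and 8023 to 10022 in control libraries. Of 10 neuron markers 2 were higher, with sums of 240097 to 262938 in KI and 228958 to 253576 in control libraries, and of 10 endothelial markers 2 were lower, with sums of 9670 to 14140 in KI and 10601 to 13008 in control libraries. None of the 9 choroid plexus markers was called over all 8 libraries, with sums of 16238, 30528, 1108 and 36316 in KI replicates 1 to 4, against 91554, 64708, 103841 and 757 in control replicates 1 to 4, and a median log2 fold change of -1.25. With KI replicate 3 and control replicate 4 left out, 8 of the 9 were lower in KI BS, and every remaining KI sum was below every remaining control sum. Ttr, by which these 2 libraries were picked, is itself 1 of the 9 markers and made up most of each remaining sum. It held 14980 of the 16238 in KI replicate 1 and 85820 of the 91554 in control replicate 1. The separation of the sums is therefore not independent of the choice of libraries. Of 5 red cell markers 1 was higher, with sums of 8408 to 13320 in KI and 3007 to 11782 in control libraries. No defining marker of these lists was at 0 in all libraries. The part of these cell types in the changes below was not tested.

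All 3 genes of galactolipid synthesis were called lower by limma, each tested singly, and the call of Ugt8a was lost in edgeR and DESeq2. Ugt8a (chr3:125865271-125938619, minus strand, GRCm38) encodes the galactosyltransferase that turns ceramide into galactosylceramide. It had 8464, 9166, 5842 and 28596 normalized counts in KI replicates 1 to 4, against 28131, 26769, 35282 and 20283 in control replicates 1 to 4. The first 3 KI libraries lay far below every control, but KI replicate 4 lay above control replicates 1, 2 and 4, so the groups overlapped. Its log2 fold change was -1.34 (95% CI -2.29 to -0.39), with a limma adjusted p of 0.046. That call was kept in 1 of the 8 fits that leave out a library, where the adjusted p went up to 0.118, and it was not made by edgeR (adjusted p = 0.107) or DESeq2 (adjusted p = 0.133). Without KI replicate 4, the log2 fold change was -1.82 and the limma adjusted p was 0.000456.

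Fa2h, the fatty acid hydroxylase that makes the hydroxylated fatty acids of myelin galactolipids (chr8:111345135-111393824, minus strand), had the most negative log2 fold change of the 40. It had 2592, 2054, 1373 and 7642 normalized counts in KI replicates 1 to 4, against 11168, 9253, 10717 and 6853 in control replicates 1 to 4. KI replicate 4 lay above control replicate 4 and below the other controls. By limma, the log2 fold change was -1.77 (95% CI -2.77 to -0.77, limma adjusted p = 0.0227). With 1 library left out, it ranged from -2.27 to -1.44 and the call was kept in 3 of 8 limma fits, with adjusted p of 0.000334 to 0.0722, while edgeR gave an adjusted p of 0.0501.

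Gal3st1, the sulfotransferase that makes sulfatide from galactosylceramide (chr11:3983636-3999326, plus strand), had the KI libraries in the same order. It had 1034, 800, 621 and 2018 normalized counts in KI replicates 1 to 4, against 2403, 2197, 2554 and 1903 in control replicates 1 to 4. The first 3 KI libraries were below every control and KI replicate 4 was above control replicate 4 alone. KI over control, this was a log2 fold change of -1.16 (95% CI -1.84 to -0.47, limma adjusted p = 0.0263), and 2 of 8 fits without 1 library kept the call, with adjusted p of 0.000456 to 0.0821.

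Promoter letters are shown for 4 genes that were lower, Ugt8a, Cers2, Elovl1 and Fasn, 1 from each of the galactolipid, ceramide synthase, elongase and fatty acid supply groups, and for Elovl2, which was higher. Each line is the 200 bases 5′ to 3′ just before the RefSeq start site on the strand of the gene, first start listed (GRCm38.p6), with the letters of any matched motif in capitals.
Ugt8a, chr3:125938653-125938852, minus strand: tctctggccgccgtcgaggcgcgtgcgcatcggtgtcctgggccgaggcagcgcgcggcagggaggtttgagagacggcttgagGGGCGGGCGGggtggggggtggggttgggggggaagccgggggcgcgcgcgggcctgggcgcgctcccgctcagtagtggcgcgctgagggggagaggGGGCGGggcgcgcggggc
Cers2, chr3:95314990-95315189, plus strand: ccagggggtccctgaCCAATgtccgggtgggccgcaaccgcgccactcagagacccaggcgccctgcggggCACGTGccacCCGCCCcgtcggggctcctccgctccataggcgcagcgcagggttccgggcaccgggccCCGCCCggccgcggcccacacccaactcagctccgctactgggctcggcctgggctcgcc
Elovl1, chr4:118427893-118428092, plus strand: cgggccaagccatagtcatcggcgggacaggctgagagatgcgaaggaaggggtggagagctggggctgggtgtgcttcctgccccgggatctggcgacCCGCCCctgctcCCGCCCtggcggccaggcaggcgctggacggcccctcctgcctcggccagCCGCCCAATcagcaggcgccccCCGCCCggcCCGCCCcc
Fasn, chr11:120824548-120824747, minus strand: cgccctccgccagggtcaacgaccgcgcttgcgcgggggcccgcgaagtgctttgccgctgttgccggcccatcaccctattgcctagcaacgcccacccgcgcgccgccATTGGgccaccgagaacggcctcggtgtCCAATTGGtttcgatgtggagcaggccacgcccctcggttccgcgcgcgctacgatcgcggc
Elovl2, chr13:41220404-41220603, minus strand: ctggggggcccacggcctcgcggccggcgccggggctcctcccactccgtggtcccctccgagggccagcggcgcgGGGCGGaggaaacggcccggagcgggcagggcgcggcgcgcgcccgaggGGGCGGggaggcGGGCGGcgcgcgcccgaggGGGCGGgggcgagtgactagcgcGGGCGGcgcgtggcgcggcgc
The motifs searched on both strands were the GC box GGGCGG, the CCAAT box CCAAT, the E-box CACGTG, the Sox motif ACAAAG and the sterol regulatory element TCACNCCAC. The search covered 300 bases, 250 before to 50 after each start. Ugt8a and Elovl2 held GC boxes and no CCAAT box in the printed letters, with 3 and 5 matches, some adjoining or sharing letters. Elovl1 held 5 GC boxes, 1 of which shares letters with its single CCAAT box. Fasn held 3 CCAAT boxes, 2 of which share letters, and no GC box. Cers2 held 1 CCAAT box, 1 E-box and 2 GC boxes.

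Windows were matched for 34 of the 40 genes, and Fads1, Asah1, Fa2h, Scd1, Scd2 and Smpd3 had no entry. A GC box stood in 73.5% of the 34 and in 66.74% of the 11598 tested genes with a window. A CCAAT box stood in 47.1% of the 34 and 42.47% of all. An E-box stood in 8 of the 34 (23.5%), Degs1, Cers2, Cers6, Sgms2, Arsa, Smpd2, Elovl4 and Elovl5, and in 11.23% of all. The Sox motif stood in 4 of the 34 (11.8%) and in 16.56% of all, and the sterol element stood in 0 of the 34 and 1.41% of all. These are matches of letters, not mapped sites.

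Of the 6 genes of de novo ceramide synthesis, 1 was lower and 5 did not pass. Sptlc2, a catalytic subunit of serine palmitoyltransferase, which makes the first sphingoid base (chr12:87305058-87388355, minus strand), was the lower one. It had 1267, 1310, 1004 and 1849 normalized counts in KI replicates 1 to 4, against 2100, 2076, 2159 and 1792 in control replicates 1 to 4. KI replicate 4 was above control replicate 4, and the other 3 KI libraries were below every control. The resulting log2 fold change was -0.61 (95% CI -0.97 to -0.25, limma adjusted p = 0.0256), kept in 3 of 8 fits without 1 library (adjusted p 0.00106 to 0.0733).

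The partner subunit Sptlc1 did not pass. It had 1065, 926, 1002 and 1130 normalized counts in KI replicates 1 to 4, against 1136, 1136, 1206 and 1069 in control replicates 1 to 4, and its log2 fold change was -0.14 (95% CI -0.31 to 0.03, limma adjusted p = 0.196). Whether Sptlc1 and Sptlc2 differ in their change was not tested. Sptssa, a small activating subunit of the same enzyme, had a log2 fold change of 0.12 (95% CI -0.15 to 0.38), and Kdsr, which reduces the first product, had 0.16 (95% CI -0.01 to 0.32).

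The desaturases of dihydroceramide gave fold changes of opposite sign, and neither passed in limma over all 8 libraries. Degs1, which makes ceramide from dihydroceramide, had 4193, 3826, 3124 and 5033 normalized counts in KI replicates 1 to 4, against 5495, 5279, 5857 and 4603 in control replicates 1 to 4. Degs2, a paralog that can also make phytoceramide, had 96.5, 79.2, 64.1 and 45.9 in KI replicates 1 to 4, against 50.8, 42.3, 43.8 and 41.0 in control replicates 1 to 4. Degs1 had a log2 fold change of -0.41 (limma adjusted p = 0.0575) and Degs2 of 0.63 (adjusted p = 0.0715). Without KI replicate 4 both passed in limma, with log2 fold changes of -0.52 (adjusted p = 0.00849) and 0.82 (adjusted p = 0.00942). The DESeq2 Wald test on all 8 libraries called both, with adjusted p of 0.0346 for Degs1 and 0.0352 for Degs2, and Degs1 also passed in limma with the GC correction (adjusted p = 0.034) and without control replicate 4 (adjusted p = 0.0472). Evl, on the other strand, shares 10.8% of the exon bases of Degs2, and reads over shared bases were counted for neither gene.

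Of the 5 ceramide synthases, Cers2 was lower and the other 4 did not pass. Cers2, which prefers very long acyl chains (chr3:95314791-95323599, plus strand), had 3917, 2953, 2175 and 6668 normalized counts in KI replicates 1 to 4, against 8510, 8568, 9348 and 6511 in control replicates 1 to 4. KI replicate 4 was above control replicate 4, and the other 3 KI libraries were below every control. The log2 fold change was -1.18 (95% CI -1.84 to -0.52, limma adjusted p = 0.0219). It was kept in 4 of 8 fits without 1 library (log2 fold change -1.48 to -0.94, adjusted p 0.000828 to 0.07) and by edgeR (adjusted p = 0.0337) and DESeq2 (adjusted p = 0.00174).

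Cers5 and Cers6, which prefer shorter chains of the palmitoyl type, had log2 fold changes of -0.12 (95% CI -0.28 to 0.04) and -0.20 (95% CI -0.36 to -0.03, limma adjusted p = 0.0745). Cers4, which prefers long saturated chains, had -0.03 (95% CI -0.21 to 0.14). Cers1, the stearoyl-type ceramide synthase of neurons, had 695, 751, 782 and 768 normalized counts in KI replicates 1 to 4, against 791, 875, 846 and 948 in control replicates 1 to 4. Its groups did not overlap, but the log2 fold change of -0.21 did not pass (limma adjusted p = 0.0732). Gdf1 and Upf1 share 42.7% of the exon bases of Cers1, reads there were counted for neither gene, and Gdf1 was listed at 0 in all 8 libraries, so the level of Cers1 can be understated.

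Per kilobase of exon, Cers2 held 60.9%, 53%, 45.9% and 70.9% of the summed ceramide synthase counts in KI replicates 1 to 4, against 76.0%, 74.5%, 76.0% and 68.5% in control replicates 1 to 4. It was the most abundant ceramide synthase on this scale in every library, at 57.7 ± 11.0% in KI and 73.8 ± 3.5% in control mice (SD, n = 4 each). Cers5 held 18.4 ± 4.0% in KI and 11.3 ± 1.0% in control mice, and its counts per kilobase themselves were 311.8 in KI and 338.6 in control mice. These shares are a description with no test, and a share can rise because another member falls.

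**Figure D2:**
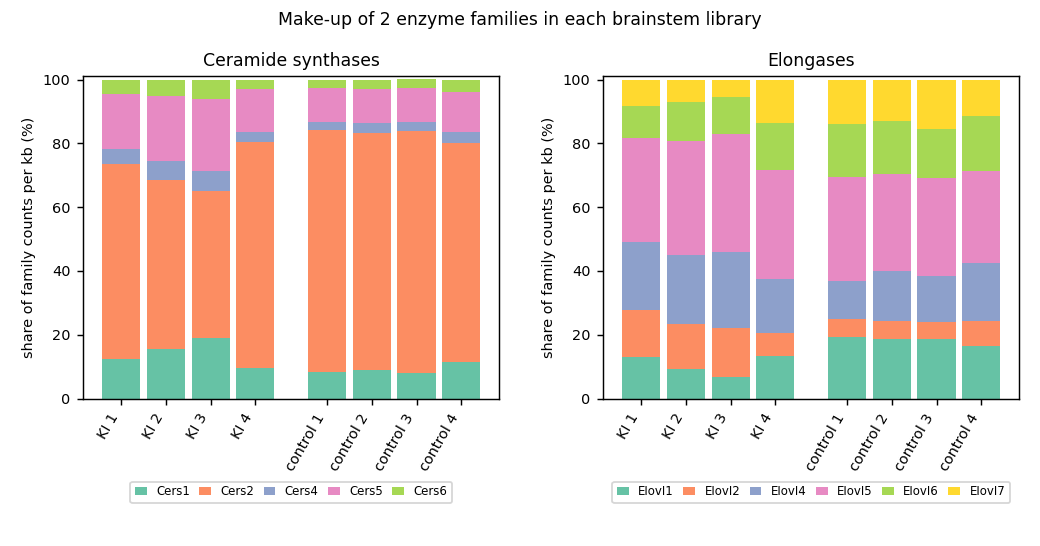
Share of each paralog in the counts per kilobase of the ceramide synthases (left) and the elongases (right), in percent of the family, 1 bar per BS library with KI mice left of control mice. Cers2 made up 45.9% to 70.9% of the ceramide synthases in KI and 68.5% to 76.0% in control libraries, and Elovl2 made up 7.38% to 15.2% of the elongases in KI and 5.41% to 7.85% in control libraries.

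None of the 4 genes that convert ceramide to other products passed in limma over all 8 libraries. Ugcg, the glucosylceramide synthase, had 2195, 2163, 2078 and 2502 normalized counts in KI replicates 1 to 4, against 1727, 2020, 2154 and 2201 in control replicates 1 to 4, with a log2 fold change of 0.14 (95% CI -0.06 to 0.35). Sgms1, the Golgi sphingomyelin synthase, had 0.09 (95% CI -0.14 to 0.31), and Cerk, the ceramide kinase, had 0.08 (95% CI -0.07 to 0.22), and Cerk passed with the GC correction alone (limma adjusted p = 0.0357). Sgms2, a sphingomyelin synthase of the plasma membrane, was the most spread of the group, with 346, 305, 219 and 366 normalized counts in KI replicates 1 to 4, against 500, 395, 637 and 239 in control replicates 1 to 4. Its log2 fold change was -0.46 with an interval of -1.09 to 0.18, and only without control replicate 4 did it pass (limma adjusted p = 0.042).

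Of the 7 genes of sphingolipid breakdown, 1 was lower and 6 did not pass. Arsa, the lysosomal arylsulfatase that removes sulfate from sulfatide (chr15:89472476-89477425, minus strand), had 915, 735, 702 and 767 normalized counts in KI replicates 1 to 4, against 966, 1076, 906 and 907 in control replicates 1 to 4. KI replicate 1 lay just above control replicates 3 and 4, and the other KI libraries were below every control. Its log2 fold change was -0.31 (95% CI -0.53 to -0.09, limma adjusted p = 0.0461), kept in 1 of 8 fits without 1 library (adjusted p 0.0317 to 0.132). DESeq2 made the call (adjusted p = 0.0329) and edgeR did not (adjusted p = 0.0541). With the GC correction the log2 fold change was -0.15 and did not pass (limma adjusted p = 0.211). Of all 20 alternative fits, 5 kept the call. C230037L18Rik, on the other strand, shares 18.8% of the exon bases of Arsa.

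Galc, the lysosomal enzyme that removes galactose from galactosylceramide, had nearly the same level in both groups. It had 1018, 1008, 1003 and 1062 normalized counts in KI replicates 1 to 4, against 1024, 988, 1057 and 925 in control replicates 1 to 4, a log2 fold change of 0.04 with an interval of -0.11 to 0.18. The ceramidases Asah1, which is lysosomal, and Asah2, which is neutral, had log2 fold changes of 0.14 (95% CI -0.03 to 0.31) and -0.15 (95% CI -0.47 to 0.16). The sphingomyelinases Smpd1, which is lysosomal, and Smpd2 and Smpd3, which are neutral, had -0.16 (limma adjusted p = 0.118), 0.18 (adjusted p = 0.329) and -0.08 (adjusted p = 0.541). Mical1 shares 20.3% of the exon bases of Smpd2.

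The 6 elongases, which add carbons to fatty acids in the endoplasmic reticulum, went both ways, with 2 lower and 1 higher. Elovl1, which makes saturated and monounsaturated very long chains (chr4:118428093-118432953, plus strand), had 1407, 977, 622 and 1951 normalized counts in KI replicates 1 to 4, against 2866, 2752, 3053 and 2102 in control replicates 1 to 4. Every KI library was below every control, and KI replicate 4 was the closest to them. By limma, the log2 fold change was -1.23 (95% CI -1.91 to -0.55, limma adjusted p = 0.0213), kept by edgeR (adjusted p = 0.0281), by DESeq2 (adjusted p = 0.00104) and in 4 of 8 fits without 1 library (log2 fold change -1.49 to -0.94, adjusted p 0.0024 to 0.0674).

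Elovl2, which extends polyunsaturated fatty acids on the way to docosahexaenoic acid (chr13:41182381-41220405, minus strand), was higher in KI BS. It had 2335, 2146, 1986 and 1584 normalized counts in KI replicates 1 to 4, against 1160, 1220, 1289 and 1447 in control replicates 1 to 4. Every KI library was above every control, with KI replicate 4 the lowest of the KI libraries and control replicate 4 the highest of the controls. KI over control, this was a log2 fold change of 0.64 (95% CI 0.37 to 0.92, limma adjusted p = 0.0117). Elovl2 was the only member called in all 8 fits without 1 library (log2 fold change 0.57 to 0.75, adjusted p 0.000585 to 0.0484), and edgeR gave an adjusted p of 0.0108.

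Elovl6, which extends palmitate to stearate (chr3:129532355-129638495, plus strand), had 2516, 3042, 2533 and 5152 normalized counts in KI replicates 1 to 4, against 5700, 5680, 5846 and 5149 in control replicates 1 to 4. KI replicate 4 was level with control replicate 4, and the other 3 KI libraries were below every control. The resulting log2 fold change was -0.82 (95% CI -1.28 to -0.36, limma adjusted p = 0.0216), kept in 2 of 8 fits without 1 library (log2 fold change -1.06 to -0.71, adjusted p 0.000134 to 0.0654).

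Elovl7, a further elongase of long saturated chains, had 1332, 1073, 700 and 2931 normalized counts in KI replicates 1 to 4, against 3027, 2828, 3729 and 2125 in control replicates 1 to 4. KI replicate 4 lay among the controls. The log2 fold change of -1.13 did not pass (95% CI -1.98 to -0.29, limma adjusted p = 0.0545), whereas without KI replicate 4 it was -1.52 (adjusted p = 0.00174). Elovl5, which acts on polyunsaturated chains, had -0.21 (95% CI -0.54 to 0.11) and passed without KI replicate 4 alone (limma adjusted p = 0.0381), and Elovl4, which makes the longest chains, had 0.09 (95% CI -0.11 to 0.30).

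Per kilobase of exon, Elovl1 held 10.6 ± 3.0% of the elongase counts in KI and 18.4 ± 1.2% in control mice, and Elovl2 held 12.9 ± 3.7% in KI and 6.1 ± 1.2% in control mice (SD, n = 4 each). Elovl5 was the most abundant elongase on this scale in every library, at 34.8 ± 1.9% in KI and 30.7 ± 1.6% in control mice. Elovl2 exceeded Elovl1 in KI replicates 1, 2 and 3, at 14.8%, 14.1% and 15.2% against 13.0%, 9.34% and 6.91%, but not in KI replicate 4, at 7.38% against 13.2%, nor in any control. These shares carry no test.

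**Figure D3:**
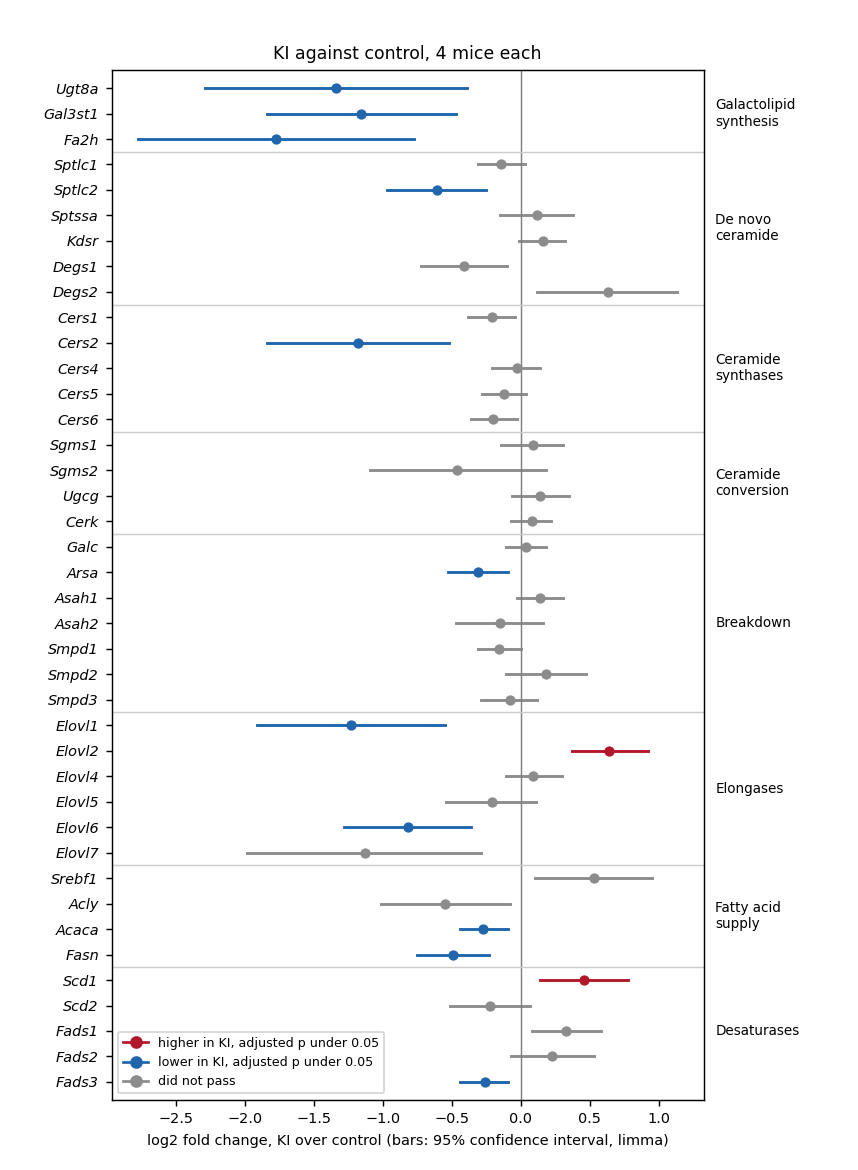
Log2 fold change of each of the 40 genes, KI over control, with its 95% confidence interval from limma, grouped by role (blue, lower; red, higher; grey, did not pass at an adjusted p of 0.05). The widest intervals belong to genes in which KI replicate 4 lay among the controls, such as Fa2h, at -2.77 to -0.77.

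Of the 4 genes that supply fatty acid synthesis, 2 were lower. Fasn, the fatty acid synthase that makes palmitate (chr11:120805846-120824547, minus strand), had 8614, 8213, 8768 and 11290 normalized counts in KI replicates 1 to 4, against 13909, 12399, 14114 and 11212 in control replicates 1 to 4. KI replicate 4 was just above control replicate 4, and the other 3 KI libraries were below every control. The log2 fold change was -0.49 (95% CI -0.75 to -0.23, limma adjusted p = 0.0191), kept in 4 of 8 fits without 1 library (adjusted p 0.00152 to 0.0646), but not with a correction for GC content and length (adjusted p = 0.119).

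Acaca, the carboxylase that makes malonyl-CoA (chr11:84129672-84401651, plus strand), had 2156, 2200, 2072 and 2469 normalized counts in KI replicates 1 to 4, against 2859, 2595, 2800 and 2440 in control replicates 1 to 4. The groups overlapped through KI replicate 4 alone. Its log2 fold change was -0.27 (95% CI -0.44 to -0.09, limma adjusted p = 0.0352), kept in 2 of 8 fits without 1 library (adjusted p 0.0082 to 0.0937) and not with the GC correction (adjusted p = 0.106). Acly, which makes cytosolic acetyl-CoA from citrate, had 8760, 9919, 6277 and 11364 normalized counts in KI replicates 1 to 4, against 15428, 13603, 14632 and 9214 in control replicates 1 to 4. Its log2 fold change of -0.55 did not pass (limma adjusted p = 0.0815), while without KI replicate 4 it was -0.67 (adjusted p = 0.0334) and DESeq2 on all 8 libraries called it (adjusted p = 0.033).

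Srebf1, the transcription factor that drives fatty acid synthesis genes, showed the opposite sign to those 3 genes. It had 2682, 2918, 3158 and 1585 normalized counts in KI replicates 1 to 4, against 1663, 1691, 1803 and 1796 in control replicates 1 to 4. The first 3 KI libraries were above every control and KI replicate 4 was below every control. The log2 fold change of 0.53 did not pass (95% CI 0.10 to 0.95, limma adjusted p = 0.0691). Without KI replicate 4 it was 0.75 (limma adjusted p = 0.000248). On all 8 libraries, edgeR (adjusted p = 0.0459) and DESeq2 (adjusted p = 0.0117) called Srebf1, as did limma with the GC correction (adjusted p = 0.04). Whether Srebf1 and Fasn differ in their change was not tested.

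Of the 5 desaturases, Scd1 was higher, Fads3 was lower and 3 did not pass. Scd1, a stearoyl-CoA desaturase that makes oleate (chr19:44394455-44407879, minus strand), had 19389, 16678, 19382 and 17564 normalized counts in KI replicates 1 to 4, against 15110, 11310, 16616 and 10810 in control replicates 1 to 4. Every KI library was above every control, although KI replicate 2, at 16678, exceeded control replicate 3, at 16616, by little. By limma, the log2 fold change was 0.46 (95% CI 0.14 to 0.78, limma adjusted p = 0.0435), kept in 2 of 8 fits without 1 library (adjusted p 0.036 to 0.124) and not by edgeR (adjusted p = 0.0514).

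Scd2, the stearoyl-CoA desaturase that prevails in brain, had 87161, 87446, 92385 and 106900 normalized counts in KI replicates 1 to 4, against 115538, 104987, 120784 and 94806 in control replicates 1 to 4. KI replicate 4 lay among the controls. The log2 fold change of -0.22 did not pass (95% CI -0.51 to 0.07, limma adjusted p = 0.236). Per kilobase, Scd1 held 18.0 ± 1.9% of the summed Scd1 and Scd2 counts in KI and 12.0 ± 1.2% in control mice (SD, n = 4 each), and the 4 KI shares, 15.5% to 19.9%, lay above the 4 control shares, 10.7% to 13.3%. Scd1 and Scd2 are close paralogs, and reads that aligned equally well to both were counted for neither, so both levels can be understated.

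Fads3, a desaturase that acts on sphingoid bases (chr19:10041569-10060110, plus strand), had 533, 522, 473 and 546 normalized counts in KI replicates 1 to 4, against 582, 662, 657 and 591 in control replicates 1 to 4. Every KI library was below every control. KI over control, this was a log2 fold change of -0.26 (95% CI -0.44 to -0.09, limma adjusted p = 0.0389), kept in 2 of 8 fits without 1 library (adjusted p 0.0257 to 0.118) and not with the GC correction (adjusted p = 0.214).

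The neighbouring Fads1 and Fads2 encode desaturases of polyunsaturated fatty acids. Fads1 had 9085, 9259, 11613 and 7963 normalized counts in KI replicates 1 to 4, against 7798, 6807, 7481 and 7842 in control replicates 1 to 4. Every KI library was above every control, KI replicate 4 by little. The log2 fold change of 0.33 did not pass (95% CI 0.08 to 0.58, limma adjusted p = 0.0566), whereas without KI replicate 4 it was 0.41 (adjusted p = 0.0124), and it also passed by DESeq2 (adjusted p = 0.0206) and with the GC correction (adjusted p = 0.0397). Fads2 had a log2 fold change of 0.23 (95% CI -0.07 to 0.53, limma adjusted p = 0.227).

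**Figure D4:**
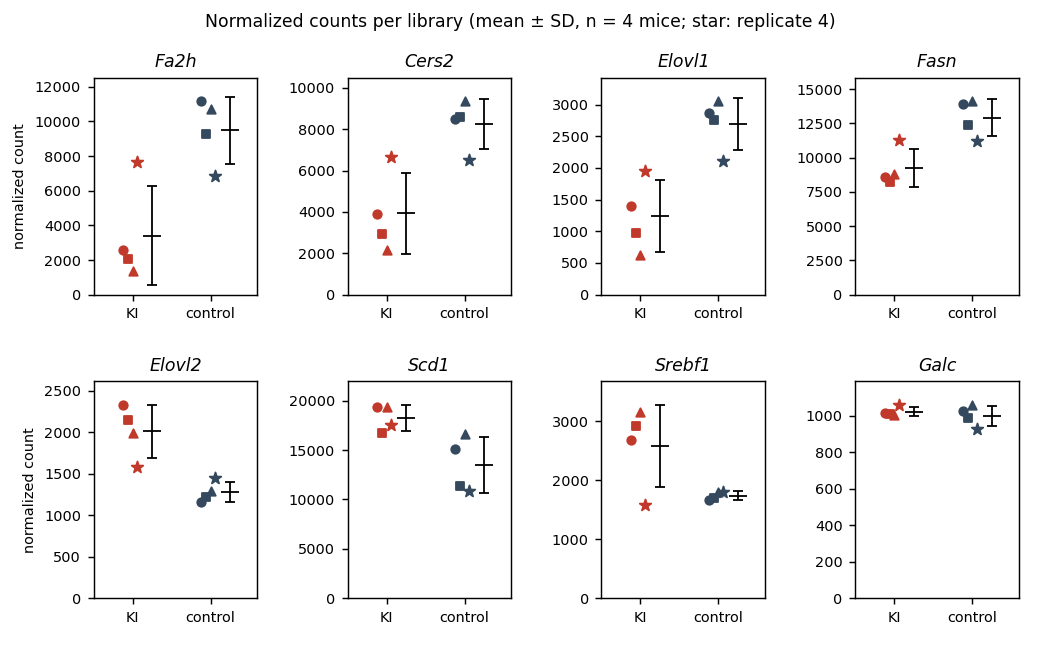
Normalized counts per BS library for 8 of the genes, KI left of control, with the mean ± SD of 4 mice beside the points and a star for replicate 4 of each group. By limma over all 8 libraries, Fa2h, Cers2, Elovl1 and Fasn were lower and Elovl2 and Scd1 higher in KI mice. Srebf1, at 1585 in KI replicate 4, did not pass in that fit, but edgeR and DESeq2 called it. Galc, at 1003 to 1062 in KI and 925 to 1057 in control mice, did not pass.

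Further genes of the same pathways were read from the same limma fit. Of 41 other sphingolipid genes, 38 were tested, 7 were lower and 4 were higher in KI BS, with a median log2 fold change of -0.03. Leaving out KI replicate 4 gave 8 lower and 5 higher, and leaving out the libraries of low Ttr gave 4 lower and 2 higher. Those of lowest p past the threshold included Col4a3bp, Gm2a and Sphk2. Col4a3bp, which carries ceramide to the Golgi, had 3276, 3904, 3445 and 3234 normalized counts in KI replicates 1 to 4, against 2782, 2672, 2748 and 2574 in control replicates 1 to 4, with no overlap. Its log2 fold change was 0.36 (limma adjusted p = 0.0125). Gm2a, the activator protein of ganglioside breakdown, also separated the groups.

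Gm2a had 6973, 7014, 7427 and 5172 normalized counts in KI replicates 1 to 4, against 3987, 4137, 4703 and 4747 in control replicates 1 to 4, a log2 fold change of 0.59 (limma adjusted p = 0.0127). Sphk2, a sphingosine kinase, fell by 0.44 on the log2 scale (limma adjusted p = 0.0139). The most negative of the list, against the rise of Col4a3bp, was S1pr5, a receptor for sphingosine 1-phosphate that OL carry. S1pr5 had 487, 355, 298 and 1164 normalized counts in KI replicates 1 to 4, against 1663, 1272, 1400 and 1095 in control replicates 1 to 4. KI replicate 4 again lay within the control range, and the log2 fold change was -1.44 (limma adjusted p = 0.0237, kept in 2 of 8 fits without 1 library). The other 2 higher genes, Ormdl1 and Ormdl3, which restrain serine palmitoyltransferase, were named after their values were seen. Their log2 fold changes were 0.36 (limma adjusted p = 0.0466) and 0.27 (adjusted p = 0.0367), and each call was kept in 1 of 8 fits without 1 library. Their paralog Ormdl2 had the opposite sign, at -0.31, and did not pass (limma adjusted p = 0.222).

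Of 34 other fatty acid genes, 32 were tested, 6 were lower and 6 were higher, with a median log2 fold change of 0.03. Leaving out KI replicate 4 gave 8 lower and 7 higher, and leaving out the libraries of low Ttr gave 5 lower and 1 higher. Scap, which escorts the SREBP proteins to the Golgi, had 2066, 1948, 1832 and 2127 normalized counts in KI replicates 1 to 4, against 2586, 2653, 2562 and 2558 in control replicates 1 to 4. All 4 KI libraries were below all controls, and the log2 fold change of -0.38 (limma adjusted p = 0.00912) was called in all 8 fits without 1 library. Insig2, which holds Scap in the endoplasmic reticulum, had 1782, 1848, 1668 and 1723 normalized counts in KI replicates 1 to 4, against 1465, 1441, 1551 and 1471 in control replicates 1 to 4, and it rose by 0.24 on the log2 scale (limma adjusted p = 0.0189, kept in 6 of 8 fits without 1 library).

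Srebf2, the SREBP factor of cholesterol synthesis, had 4720, 4548, 3618 and 5589 normalized counts in KI replicates 1 to 4, against 6658, 6344, 6516 and 6090 in control replicates 1 to 4. Every KI library was below every control, and the log2 fold change was -0.49 (limma adjusted p = 0.0195, kept in 5 of 8 fits without 1 library), the opposite sign to that of Srebf1. Hacd2, a dehydratase of the elongation cycle, was the highest of the list relative to control, at 0.54 on the log2 scale (limma adjusted p = 0.0214, kept in 4 of 8 fits without 1 library), with 2026, 1704, 1775 and 1322 normalized counts in KI replicates 1 to 4, against 1168, 1046, 1366 and 1094 in control replicates 1 to 4. KI replicate 4 lay just below control replicate 3, and the other 3 KI libraries were above every control.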

How the data were processed

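Poly(A) RNA-seq libraries of whole BS from 4 KI and 4 control mice were compared, with groups taken from the sample labels. The authors used STAR 2.7 for alignment of the read pairs (mm10), HTSeq for unstranded counting (minimum alignment quality 10, ambiguous reads left out) and DESeq2 for normalization. The deposited signal is thus the count of reads over the size factor that the authors took for the library. Undoing that division gave whole reads for 100% of the values within a tolerance of 0.01. The authors' deposited fold changes, test statistics and p-values were not used. Columns of other samples numbered 0.

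The table had 24709 lines, of which 628 repeat an Ensembl gene and were dropped. The 15123 genes whose normalized counts averaged 10 or more were compared by limma 3.58.1 in R 4.3.3 on log2(normalized count + 1), with a variance trend and Benjamini-Hochberg adjustment at 0.05. A fold change on this scale understates that of low genes. The limma p-values weigh the difference of the groups against the spread between these mice, moderated over genes. The steps were tested on simulated data. edgeR 4.0.16 on the recovered reads called 3627 of the genes and DESeq2 1.42.0 called 4417. Other alternatives were TMM and upper-quartile normalization, other pseudocounts (0.1 and 10) and low-count filters, log2 Xist as a covariate, the replicate number as a block, each library left out, and the libraries low in Ttr left out. Chosen after seeing the data was a loess correction for the GC content and length of the longest transcript of each gene (span 0.3).

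Coordinates are GENCODE gene bounds on GRCm38 (mm10), and promoter letters are from RefSeq (GRCm38.p6). The members and lists were chosen with earlier results of these data known. All 40 members were named. Of each further pathway list, those named were the 4 called genes of lowest p, and the gene furthest the other way from the first of these. An item that this rule picks is not reported here. Marker lists were summarised by counts and sums. No test was run on any list, and family shares carry no test.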

Additional observations from a re-analysis of the deposited data

Results flagged for a closer look

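In each group of 4 libraries, the gap between the highest or lowest library and its neighbour was compared with the range of the group (Dixon's ratio). Over the 80 groups of the 40 genes, 3 libraries stood beyond the 95% limit, and chance flags about 1 in 20 groups. Ugt8a had 28600 normalized counts in KI replicate 4, while the other 3 KI libraries had 5842 to 9166 (ratio 0.854). Asah1 had 1845 in KI replicate 3, while the other 3 KI libraries had 2074 to 2085 (ratio 0.953). Elovl4 had 1998 in control replicate 1, while the other 3 controls had 2525 to 2565 (ratio 0.929). KI replicate 4 is also the KI library with the lowest Pdgfra and Gt(ROSA)26Sor and the only one high in Xist.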

How the results depend on the processing

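Of 800 values of single genes under alternatives, 662 kept direction and side of the threshold, 108 lost and 22 gained a call, and 8 changed sign, none of them in the 13 called genes. With log2 Xist as a covariate, 5 genes were lower and 1 higher, with 2210 calls over all genes and 5 in each further pathway list. Without the 2 libraries low in Ttr there were 6 and 1, with 1836 over all genes and 6 in each further list. DESeq2 and the GC correction each gave 5 higher, and the GC correction left 2369 calls over all genes, while the fit with no low-count filter gave 1 higher. With 1 library left out, 0 (without KI replicate 2) to 14 (without KI replicate 4) were lower, 1 to 5 were higher, 888 to 5296 genes were called in all, 2 to 13 further sphingolipid genes and 1 to 15 further fatty acid genes. The signs that changed belonged to Sptssa (-0.351), Galc (-0.174), Smpd3 (0.099) and Elovl4 (-0.027) with the GC correction, Sgms1 (-0.005) with Xist, and Cers4 with upper-quartile normalization (0.001). With 1 library left out, Cers4 ranged from -0.096 to 0.012 and Galc from -0.0 to 0.064. The cause of these shifts was not tested.

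Same-numbered libraries had correlations of 0.256, -0.117, -0.463 and -0.362 in their deviations from the group means. Only number 1 matched its own number best. So few correlations cannot exclude that mice were paired or shared a litter. With a replicate block, limma called 0 genes lower and 0 higher of the 40, 0 in each further list and 0 over all genes, while 15 of the 40 were lower and 5 higher at an unadjusted p under 0.05, as were 5087 of all genes. Counting error weighs most on Degs2, which had the lowest mean (71.4 normalized counts in KI and 44.5 in control mice).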
